A study of Mus musculus with 6 samples.

Results

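The genes examined were the SRRM family (Srrm1, Srrm2, Srrm3 and Srrm4), the speckle scaffold gene Son, and 5 genes for speckle and exon junction proteins (Pnn, Acin1, Rnps1, Bclaf1 and Thrap3). The genes were listed by name, with no measured value in the rule but with earlier results of these data known, and they are 10 of the 42450 genes listed in the deposited table. All 10 passed the filter on low counts, which left 18905 genes for testing. The question was whether the RNA of a relative or partner of Srrm2 was higher where that of Srrm2 was lower.

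Total RNA was sequenced from male mouse embryonic stem cells (ESC) of the line E14tg2a.4 (WT) and from Srrm2+/- cells, with 3 libraries in each group. Srrm2+/- is a single gene-trap line, CG0630, made in E14tg2a.4 by the Sanger Institute Gene Trap Resource, with 1 Srrm2 allele truncated in exon 1. Both groups were maintained with LIF, the cytokine that sustains mouse ESC, and per the labels were moved to serum-free medium with LIF before collection, with no drug or other treatment named. The replicates were separately frozen and thawed batches of cells. The WT cells were frozen at higher passage numbers than the Srrm2+/- cells, so genotype, clone and passage cannot be told apart.

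Nuclear speckles are bodies of the nucleus in which splicing factors gather, and SRRM2 and SON are the large proteins that hold them together. Many speckle proteins carry stretches of alternating arginine and serine, called RS domains. SRRM1 is a splicing coactivator, whereas SRRM3 and SRRM4 are best known for including very short exons, called microexons, in neurons. RNPS1 binds spliced RNA next to the exon junction complex, together with either ACIN1 or PNN, and BCLAF1 and THRAP3 are a related pair of RS-rich proteins of speckles and RNA export.

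In the stretches of coding sequence below, the RS repeats of these genes differ in their codons. Each stretch lies within a single exon and was chosen for the most neighbouring pairs of an arginine and a serine codon. The lines give 20 codons from each of the 4 SRRM genes and from Son, Pnn and Rnps1, in GRCm38, 5′ to 3′ on the coding strand. Capitals mark the arginine codons, and serine codons make up 5 to 12 of the 20. The stretches are chr4:135340891-135340950 (minus strand, exon 7) for Srrm1, chr17:23815977-23816036 (plus strand, exon 11) for Srrm2, chr5:135873204-135873263 (plus strand, exon 15) for Srrm3 and chr5:116444715-116444774 (minus strand, exon 13) for Srrm4. The others are chr16:91660025-91660084 (plus strand, exon 3) for Son, chr12:59072331-59072390 (plus strand, exon 9) for Pnn and chr17:24425105-24425164 (plus strand, exon 8) for Rnps1.
Srrm1: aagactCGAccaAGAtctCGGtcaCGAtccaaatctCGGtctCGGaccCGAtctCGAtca
Srrm2: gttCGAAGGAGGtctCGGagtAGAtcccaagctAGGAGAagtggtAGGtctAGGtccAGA
Srrm3: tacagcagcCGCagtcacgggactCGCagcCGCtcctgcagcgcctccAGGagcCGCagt
Srrm4: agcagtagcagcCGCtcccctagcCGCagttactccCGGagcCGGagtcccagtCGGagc
Son: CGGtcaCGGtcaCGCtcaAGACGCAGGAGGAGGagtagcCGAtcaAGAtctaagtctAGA
Pnn: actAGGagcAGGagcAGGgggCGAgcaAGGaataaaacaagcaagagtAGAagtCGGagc
Rnps1: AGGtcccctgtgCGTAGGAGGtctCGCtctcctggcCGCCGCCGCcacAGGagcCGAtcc

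In the longest coding transcript, Srrm2 had 318 neighbouring pairs of an arginine and a serine codon in 2703 codons, or 11.8 per 100 codons. Srrm4 was close to it at 11 per 100 codons, Rnps1 had 8.85, Srrm3 had 6.79 and Srrm1 had 5.74. Son (3.75), Pnn (3.86) and Acin1 (3.29) had the fewest, and Bclaf1 (6.75) and Thrap3 (6.73) nearly the same number. Of the 45 pairs among the 10 genes, 1 pair shared any stretch of 31 bases in their annotated transcripts, namely Pnn and Bclaf1 with 43 such stretches. The 4 SRRM genes shared none with each other, so a read of that length from any of them had a place in that gene alone as far as the other 9 were concerned.

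The libraries held 54151532 to 58499961 estimated counts in WT and 61023103 to 69933465 in Srrm2+/-, so every Srrm2+/- library was deeper than every WT library, and levels are given as CPM (counts scaled to a common library size) on library sizes scaled by the trimmed mean of M-values (TMM). All 8 ESC markers checked were present in both groups, and their summed level was 4200 to 4310 CPM in WT and 3600 to 3690 CPM in Srrm2+/-, with 5 markers lower and 1 higher by edgeR. Markers of fibroblasts were low, and their sum was higher in Srrm2+/- (3.1 to 3.29 CPM in WT and 6.2 to 9.35 CPM in Srrm2+/-). Of these 6 markers 4 were tested and 3 called higher, and Dcn was at 0 in WT. The fourth tested, Thy1, went the other way, at 1.93 ± 0.173 CPM in WT against 1.19 ± 0.498 in Srrm2+/- (SD, n = 3 each). It was not called (edgeR adjusted p 0.0939). Neural markers summed to 276 to 296 CPM in WT and 251 to 263 CPM in Srrm2+/-, and of the 11 tested of 12, 2 were called higher and 2 lower. Of the 6 primitive endoderm markers 4 were tested and 0 called by edgeR, at summed levels of at most 2.15 CPM. Of the 5 trophectoderm markers 3 were tested and 1 called higher, with sums of at most 1.89 CPM in WT against 2.79 in Srrm2+/-, and Cdx2 was at 0 in WT. The part of this difference in cell state in the results below was not tested, and in bulk RNA fewer cells of a type and less RNA per cell cannot be told apart.

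Of the 10 genes, Srrm2 fell, Pnn fell slightly and Rnps1 rose slightly, and the other 7 did not pass the test. The 3 called genes (30.0%) stand against 25.3% of all genes tested that were called at an adjusted p under 0.05 by the quasi-likelihood test of edgeR, with p-values adjusted by the Benjamini-Hochberg method over all 18905 genes. By direction, 1 member was called higher against 13.6% of all genes, and 2 were called lower against 11.7%. Without Srrm2 itself, 2 of 9 (22.2%) were called. Where the mean log2 CPM was 5 or more, 3 of 8 members were called against 33.7% of all such genes. A share of called members near that of all genes is no result about the members as a set.

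**Figure D1:**
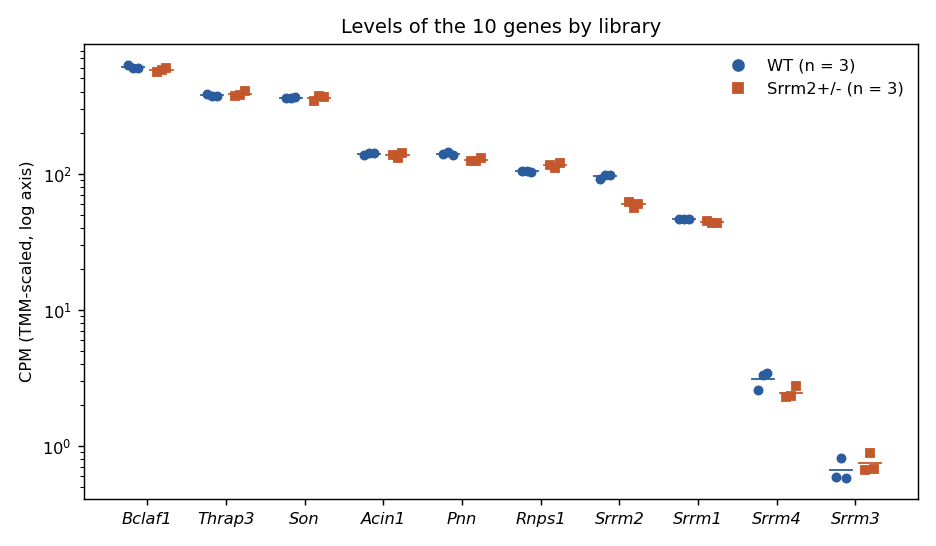
Level of each of the 10 genes in every library, in TMM-scaled CPM on a log axis, ordered by the WT mean, with WT as circles and Srrm2+/- as squares and the group mean as a line. Srrm2 is separated clearly between the groups, from 91.2 to 98.3 CPM in WT to 56.2 to 62.3 CPM in Srrm2+/-, and Srrm3 lies below 1 CPM in every library.

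Srrm2 (ENSMUSG00000039218, chr17:23790532-23824741, plus strand) is the trapped gene and was measured first, because it checks the labels. The WT libraries held 5060, 5680 and 5234 of its counts, those of Srrm2+/- 4308, 3877 and 3676. Although the Srrm2+/- libraries were deeper, each held fewer Srrm2 counts than any WT library, in the direction the genotype labels give. In CPM the level in Srrm2+/- was 62.0% of that in WT. On the log2 scale the change was -0.69 (SE 0.05; adjusted p of 2.4e-05 from edgeR), and its 95% interval runs from -42.7% to -32.9%. Of all tested genes, 583 others (3.08%) were called lower and fell at least as far, and 65 of them had a mean log2 CPM of 5 or more.

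The Srrm2 count is a sum over 12 annotated transcripts, of which 5 are protein coding, 2 are marked for nonsense-mediated decay and 4 retain an intron. The table gives 1 value per gene, so RNA of the trapped allele, RNA of the intact allele and these isoforms cannot be told apart in it. The gene at its 3′ end, Elob (chr17:23824738-23829136, minus strand), which encodes elongin B, overlaps Srrm2 by its last bases on the opposite strand. Elob itself was called lower, at 174 ± 5.63 CPM against 207 ± 16.4 in WT (SD, n = 3 each), a change of -0.25 on the log2 scale (SE 0.059; adjusted p of 0.0138 from edgeR). The overlap of Elob with Srrm2 runs only from base 23824738 to base 23824741. It is shorter than the stretches of 31 bases compared above, so no read of that length lies within it.

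Srrm1 (ENSMUSG00000028809, chr4:135320484-135353321, minus strand) encodes a general splicing coactivator. Its level was 46.3, 46.0 and 46.2 CPM in the WT libraries, against 44.9, 43.5 and 43.6 in Srrm2+/-. All 3 Srrm2+/- libraries lay below the 3 WT libraries, but by little, and the WT libraries were almost identical. This difference of -0.069 on the log2 scale, with SE 0.039, did not pass the test (edgeR adjusted p 0.249). The 95% interval ran from -10.4% to 1.44%, so a rise of Srrm1 larger than that lay outside it. With a library left out, the upper end was at most 3.54%.

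Srrm4 (ENSMUSG00000063919, chr5:116439275-116591817, minus strand), the neuronal activator of microexons, was low. The WT libraries held 144, 192 and 184 counts of it and the Srrm2+/- libraries 159, 160 and 171. In CPM these were 2.59, 3.32 and 3.44 in WT against 2.3, 2.32 and 2.77 in Srrm2+/-, and the groups overlapped because WT replicate 1 was low. The difference of -0.34 on the log2 scale (SE 0.16; adjusted p of 0.156 from edgeR) had an interval from -38.4% to 1.2%. An antisense gene that overlaps it, Srrm4os, had more counts than Srrm4 itself in every library (256 to 343), at 5.23 ± 0.458 CPM in WT against 5.06 ± 0.165 in Srrm2+/- (SD, n = 3 each). The libraries were made with a stranded kit, but the strand setting of the counting is not given in the sources used here, and 0.451% of the 31-base stretches of Srrm4 also occur in Srrm4os.

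Srrm3 (ENSMUSG00000039860, chr5:135806890-135874772, plus strand), the other microexon regulator, was the lowest of the 10 genes. Only 33, 47 and 31 of its counts were found in the WT libraries, and 46, 61 and 42 in those of Srrm2+/-. The levels of 0.595, 0.813 and 0.579 CPM in WT overlapped those of 0.665, 0.885 and 0.681 CPM in Srrm2+/-. The fitted difference, 0.17 on the log2 scale (SE 0.24; adjusted p of 0.682 from edgeR), had an interval from -23.7% to 64.8%. It was 0.023 without Srrm2+/- replicate 2 and 0.34 without WT replicate 2. At this depth the interval covered both a fall and a rise of Srrm3.

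To set the 4 SRRM genes beside each other, CPM were divided by the length of the longest annotated transcript, in kilobases (kb). In WT the level of Srrm2 was 10.8 ± 0.444 CPM per kb and that of Srrm1 was 10.2 ± 0.0234 CPM per kb (SD, n = 3 each). In Srrm2+/- the level of Srrm2 was 6.7 ± 0.341 CPM per kb and that of Srrm1 was 9.69 ± 0.178 CPM per kb. The 2 genes were nearly level in WT, with ratios of Srrm1 to Srrm2 of 0.99, 0.915 and 0.922, whereas Srrm1 was ahead in every Srrm2+/- library at 1.41, 1.51 and 1.43. Which of them leads in WT depends on the length used, since the mean ratio was 0.85 per kb of merged exons and 1.13 per kb of the longest coding transcript. In Srrm2+/- Srrm1 was ahead by all 3 lengths. Srrm4 (0.417 ± 0.061 CPM per kb in WT, 0.33 ± 0.0358 in Srrm2+/-) and Srrm3 (0.168 ± 0.0333 in WT, 0.189 ± 0.0312 in Srrm2+/-) added little to the family.

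The summed SRRM level was 21.0, 21.9 and 21.8 CPM per kb in WT and 17.4, 16.4 and 16.9 CPM per kb in Srrm2+/-. The groups did not overlap, and the Srrm2+/- mean was 78.4% of the WT mean (a difference of -4.64 CPM per kb). An exact two-sided permutation test over the 6 libraries gave p = 0.1, the smallest that 3 against 3 samples allow. The loss of Srrm2 alone was 4.1 CPM per kb. The sum of the other 3 members was 10.2 ± 0.143 CPM per kb in Srrm2+/- against 10.7 ± 0.0582 in WT (SD, n = 3 each, exact permutation p = 0.1). Most of that sum was Srrm1 (9.69 CPM per kb in Srrm2+/-, 10.2 in WT), whose own change was not called, so it adds no separate finding. Taking the upper ends of the 95% intervals, Srrm1 would have gained 0.147 CPM per kb, Srrm3 0.109 and Srrm4 0.00499. Those gains equal 3.57%, 2.66% and 0.122% of the Srrm2 loss, and at most 9.16%, 3.62% and 1.03% when 1 library was left out, an alternative chosen after seeing the data. No rise in the RNA of a family member of a size near the loss was measured. RNA levels say nothing of protein levels or activity.

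**Figure D2:**
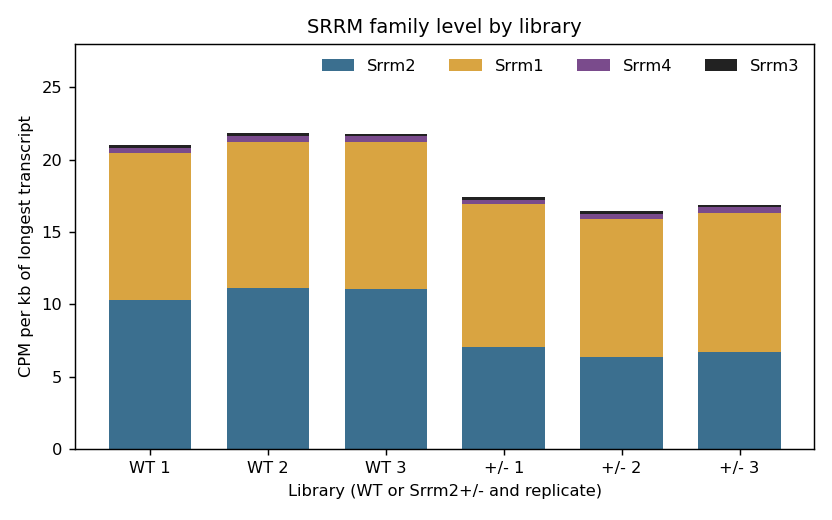
Stacked level of the 4 SRRM genes in each library, in CPM per kb of the longest annotated transcript. The stacks reach 21.0 to 21.9 in WT and 16.4 to 17.4 in Srrm2+/-, the Srrm2 block shrinks from a mean of 10.8 to 6.7, and the Srrm1 block stays between 9.57 and 10.2.

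Son (ENSMUSG00000022961, chr16:91647506-91679221, plus strand) encodes the other large speckle scaffold, and its RNA did not differ measurably. The WT libraries stood at 361, 358 and 364 CPM and the Srrm2+/- libraries at 341, 374 and 367 CPM, with the WT libraries inside the wider Srrm2+/- range. The fit gave -0.0016 on the log2 scale (SE 0.044; adjusted p of 0.984 from edgeR), with an interval from -6.8% to 7.06%. The sign of so small a value carries no weight, and it turned in 5 of the 15 alternative analyses. The per-kb ratio of Son to Srrm2 went from 4.02, 3.7 and 3.78 in WT to 5.56, 6.76 and 6.26 in Srrm2+/-.

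**Figure D3:**
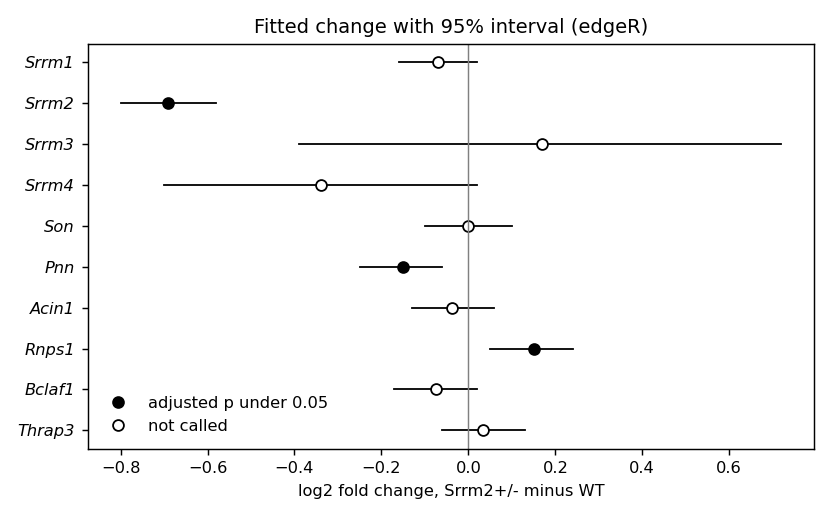
Fitted log2 fold change (Srrm2+/- minus WT, edgeR) of each gene, with its 95% interval as a bar, filled where the adjusted p was under 0.05. Srrm2 stands at -0.69, Pnn at -0.15 and Rnps1 at 0.15, and the intervals of the other 7 genes include 0, the widest being that of Srrm3.

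Of the 3 genes for partners of the exon junction complex, 1 was called higher and 1 lower, against 13.6% and 11.7% of all genes tested. With so few genes this count is no result about them as a set. Rnps1 (ENSMUSG00000034681, chr17:24414565-24425901, plus strand), the RNA-binding core of these assemblies, was the one that rose. Its RNA was at 105, 104 and 102 CPM in the WT libraries, against 116, 110 and 119 in Srrm2+/-, with no overlap between the groups. This rise of 0.15 on the log2 scale (SE 0.041; adjusted p of 0.0299 from edgeR) is a 1.11-fold difference with an interval from 3.76% to 18.2% higher. Rnps1 lies on the same chromosome as Srrm2 and begins 590 kb past its end. The call was lost in 5 of the 15 alternatives, namely without WT replicate 2 or 3, without Srrm2+/- replicate 1 or 3, and with the replicate number as a block, with adjusted p of 0.0539 to 0.109.

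Rnps1 may also share reads with a processed pseudogene, Gm9825 (chromosome 6), which holds 12.8% of the 31-base stretches of Rnps1. Gm9825 held 1953, 2050 and 2009 counts in the WT libraries, against 2487, 2610 and 2369 in Srrm2+/-, or 36.1 ± 1.27 and 37.4 ± 1.29 CPM (SD, n = 3 each). The pseudogene differed by 0.053 on the log2 scale, with SE 0.049, and was not called (edgeR adjusted p 0.489). Counting Gm9825 reads as Rnps1, an alternative chosen after seeing the data, gave a rise of 0.12 on the log2 scale (edgeR adjusted p 0.0412).

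Pnn (ENSMUSG00000020994, chr12:59066884-59073998, plus strand), which encodes pinin, an alternative partner of RNPS1, was called lower. The 3 WT libraries gave 138, 144 and 137 CPM, the 3 of Srrm2+/- gave 123, 123 and 131 CPM, and the groups did not overlap. The change of -0.15 on the log2 scale (SE 0.042; adjusted p of 0.0268 from edgeR) had an interval from -15.8% to -3.94%. The call was lost in 4 of the 15 alternatives, namely without WT replicate 2, without Srrm2+/- replicate 1 or 2, and with the replicate number as a block, with adjusted p of 0.0522 to 0.0976. Neither the rise of Rnps1 nor the fall of Pnn changed direction in any of the 15.

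Acin1 (ENSMUSG00000022185, chr14:54642161-54686931, minus strand), which encodes acinus, the other partner of RNPS1, showed no call. The WT libraries gave 136, 142 and 141 CPM and the Srrm2+/- libraries gave 136, 131 and 142 CPM, and the groups overlapped. The difference was -0.037 on the log2 scale (SE 0.042; adjusted p of 0.586 from edgeR), and its interval ran from -8.78% to 4.16%. It was -0.0072 without Srrm2+/- replicate 2 and -0.066 without Srrm2+/- replicate 3. A gene on the opposite strand, 1700123O20Rik, overlaps its 5′ end and was far lower, at 14.4 ± 0.245 CPM in WT against 16.2 ± 0.918 in Srrm2+/- (SD, n = 3 each).

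**Figure D4:**
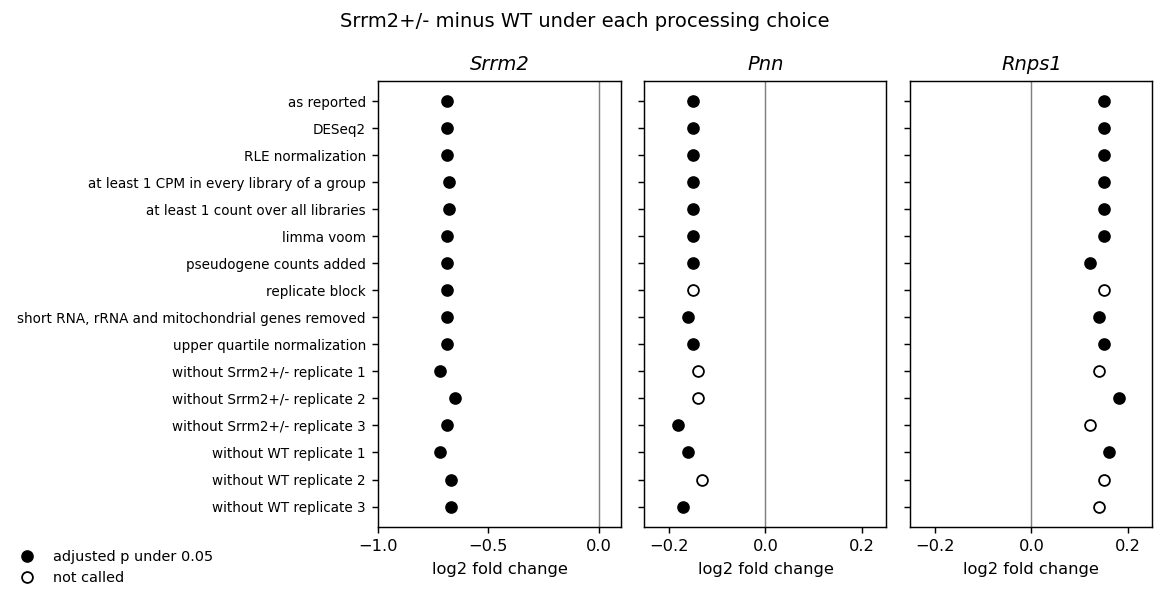
Log2 fold change (Srrm2+/- minus WT) of the 3 called genes as reported and under each of the 15 alternatives, filled where the adjusted p was under 0.05. Srrm2 stays between -0.72 and -0.65 and is called throughout, whereas Pnn (-0.18 to -0.13) and Rnps1 (0.12 to 0.18) lose the call in 4 and 5 alternatives.

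Bclaf1 and Thrap3 were the most abundant members, and neither was called. Bclaf1 (ENSMUSG00000037608, chr10:20312469-20344613, plus strand) gave 630, 595 and 597 CPM in the WT libraries, against 559, 578 and 594 in Srrm2+/-. The groups did not overlap, by a narrow margin, and differed by -0.075 on the log2 scale (SE 0.042; adjusted p of 0.241 from edgeR). Thrap3 (ENSMUSG00000043962, chr4:126164082-126202760, minus strand) gave 383, 371 and 370 CPM in the WT libraries, against 372, 378 and 401 in Srrm2+/-. These ranges overlapped, and the difference was 0.034 on the log2 scale (SE 0.042; adjusted p of 0.627 from edgeR). It was 0.0011 without Srrm2+/- replicate 3 and 0.057 without Srrm2+/- replicate 1. Thrap3 shares the most sequence with other genes, 21.9% of its 31-base stretches, but the processed pseudogene that holds most of them, Gm5898, had at most 19 counts in a library.

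Per kb of the longest transcript the order in WT was Bclaf1 (112 ± 3.55 CPM per kb), Thrap3 (85.6 ± 1.67), Rnps1 (49.3 ± 0.775), Son (41.4 ± 0.314), Pnn (40.0 ± 1.16), Acin1 (29.5 ± 0.718), Srrm2, Srrm1, Srrm4 and Srrm3. In Srrm2+/- the order was the same but for Srrm2 and Srrm1, which changed places. In WT, Son (41.0 to 41.7) and Pnn (39.2 to 41.3) overlapped in range and cannot be ordered, whereas in Srrm2+/- Son (39.0 to 42.8) lay above Pnn (35.2 to 37.5). Per kb of merged exons Thrap3 (40.6 ± 0.792) came before Bclaf1 (39.7 ± 1.26) in WT, and Rnps1 (20.2 ± 0.318) fell behind Son and Pnn, so those places depend on the gene model. Srrm4 and Srrm3 were last by every length.

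As each of the other 9 genes differed less than Srrm2 or in the other direction, the ratio of each to Srrm2 was higher in Srrm2+/-. The log2 of the ratio to Srrm2 was higher in Srrm2+/- by 0.36 for Srrm4, 0.54 for Pnn, 0.62 for Srrm1 and Bclaf1, 0.65 for Acin1, 0.69 for Son, 0.72 for Thrap3, 0.84 for Rnps1 and 0.85 for Srrm3. The ratio does not depend on the scaling of libraries. For each of the 9 ratios the exact permutation test gave p = 0.1, the smallest possible with 3 against 3, and adjustment over the 9 left it at 0.1. All 9 ratios share the Srrm2 count as denominator, so they are not separate observations.

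Groups that did not overlap in CPM were seen for 5 of the 10 genes (Srrm1, Srrm2, Pnn, Rnps1 and Bclaf1), against 41.4% of all genes tested. With an adjusted p under 0.01, 1 member (Srrm2) was called, against 14.7% of all genes. With an adjusted p under 0.05 and a change of 0.5 or more in either direction on the log2 scale it was again Srrm2 alone, against 12.1% of all genes. The 7 other members at a mean log2 CPM of 5 or more had a median absolute log2 fold change of 0.069, beside 0.0996 over the 4907 genes at that level. The median log2 fold change was -0.053 for the 10 members and -0.0025 for all genes.

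Lists of genes that work with these proteins were compared next, 66 genes in 5 lists, of which 65 were tested. In all 19 of them (29.2%) were called by edgeR, 8 higher and 11 lower, which is near the share of all genes tested (25.3%, or 33.7% of those with a mean log2 CPM of 5 or more) and no result about the lists. The counts of each list below are set beside the same shares, and nothing particular to a list is read from them. The largest list held 22 other RS-domain and speckle genes outside the SRSF family. In it 7 genes were called (31.8%, against 25.3% of all genes), 0 higher (13.6% of all genes) and 7 lower (11.7%), with a median log2 fold change of -0.055. Pnisr, an RS-rich speckle protein gene, fell from 204 ± 9.71 CPM in WT to 173 ± 12.9 in Srrm2+/- (SD, n = 3 each), or by 0.24 on the log2 scale (SE 0.06; adjusted p of 0.0191 from edgeR). The splicing regulators Rbm25 (-0.22, edgeR adjusted p 0.00281) and Rbm39 (-0.19, 0.00487) also fell, as did Luc7l2 (-0.19, 0.0196), which encodes a U1 snRNP-associated protein. The number called in this list ranged from 3 (without WT replicate 2) to 7 over the alternatives, and was 4 without WT replicate 1.

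The spliceosome list held 10 genes around the site where the Cwc21 part of SRRM2 binds, together with other Cwc proteins. Here 4 genes were called (40.0%, against 25.3% of all genes), 4 higher (13.6% of all genes) and 0 lower (11.7%), with a median of 0.07. They were Prpf8, the core scaffold of the spliceosome (406 ± 19.7 CPM in WT against 470 ± 20 in Srrm2+/-, SD, n = 3 each, log2 fold change 0.21, edgeR adjusted p 0.0136), and the RNA helicase genes Aqr (0.19, 0.018) and Snrnp200 (0.16, 0.00935). The fourth, Eftud2, which encodes the GTPase of the U5 snRNP, was at the threshold (0.12, edgeR adjusted p 0.0497). Without Srrm2+/- replicate 3, 2 genes of this list were called.

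Among the 10 genes of the exon junction complex and its partners, 1 was called (against 25.3% of all genes), the helicase gene Eif4a3, at 134 ± 0.792 CPM in WT against 150 ± 7.41 in Srrm2+/- (SD, n = 3 each), higher by 0.17 on the log2 scale (SE 0.043; adjusted p of 0.02 from edgeR). The list median was 0.013, which became -0.00066 on leaving out WT replicate 1 and 0.036 on leaving out WT replicate 2. No gene of this list was called without WT replicate 3 or without Srrm2+/- replicate 1 or 3, and 2 were called without WT replicate 1. Sap18, which completes the complexes of RNPS1 with ACIN1 or PNN, was at 15.1 CPM in both groups.

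The 13 genes of the TREX export complex and of the SNARP complex, in which BCLAF1 and THRAP3 are found, had a median of 0.038, which was -0.00058 without WT replicate 2, 0.019 without WT replicate 1 and 0.016 without Srrm2+/- replicate 3. Of them 3 (23.1%) were called, against 25.3% of all genes. Thoc2, the scaffold of the THO complex (228 ± 1.32 CPM in WT against 195 ± 8.85 in Srrm2+/-, SD, n = 3 each, log2 fold change -0.23, edgeR adjusted p 0.00413), and the export factor Sarnp (-0.18, 0.00784) fell, and Poldip3 (0.17, 0.0122) rose. In each alternative 3 genes of this list were called.

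The microexon list held 11 genes for regulators that act with or beside SRRM3 and SRRM4, of which 10 were tested and 4 called (40.0%, against 25.3% of all genes), 2 in each direction. Ptbp2 (0.32, edgeR adjusted p 0.0018) and Ptbp1 (0.19, 0.0434), whose products repress neural exons, rose. Rest, the repressor of neuronal genes, fell (585 ± 2.86 CPM in WT against 516 ± 28.1 in Srrm2+/-, SD, n = 3 each, log2 fold change -0.18, edgeR adjusted p 0.0194), and so did the neuronal splicing factor gene Nova1 (-0.86, 0.0279). Nova1 varied widely among the WT libraries, at 10.2 ± 3.4 CPM (SD, n = 3). The number called was 2 with the replicate block, without any 1 of the WT libraries, or without Srrm2+/- replicate 1.

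**Figure D5:**
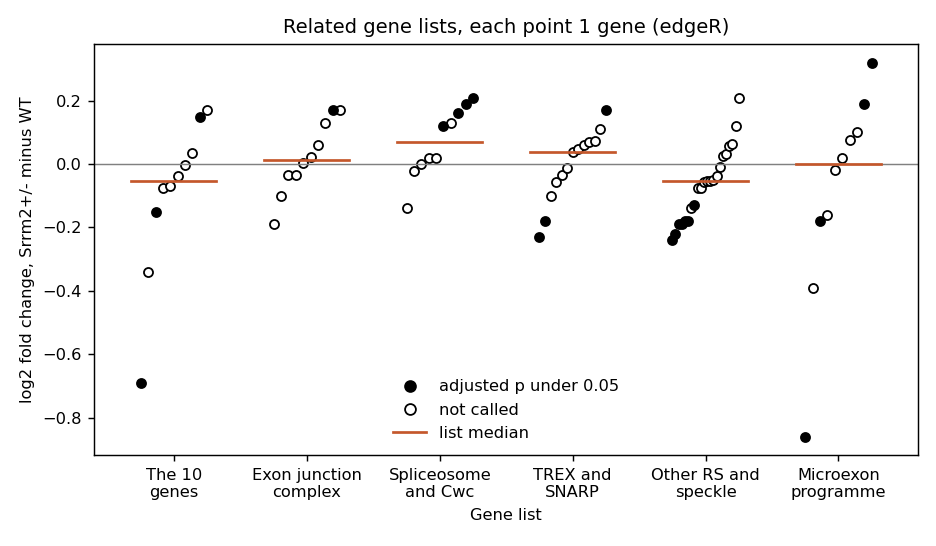
Log2 fold change (Srrm2+/- minus WT) of the 10 genes and of each tested gene in the 5 related lists, 1 point per gene, filled where the edgeR adjusted p was under 0.05, with the list median as a line. The speckle list has 7 filled points, all below 0, and the spliceosome list has 4, all above 0, within 0.25 of 0 in each case.

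The genes whose level followed Srrm2 most closely over the 6 libraries, by Pearson r of log2 CPM among 7103 genes whose mean log2 CPM was 4 or more, were Zyg11b (r = 0.9988), Tfeb (0.9987), Stc2 (0.9985), Kit (0.9982) and Dnah8 (0.9974). The 5 that ran most opposite to it were Ddah1 (-0.9987), Prtg (-0.9978), Acta2 (-0.9975), Serpinb6a (-0.9973) and Nudt5 (-0.9952). These are descriptions over libraries that fall into 2 groups, so a high r mostly reflects the difference between the groups. None of the 10 members is among these genes. Srrm2 itself was left out, and Srrm3 and Srrm4 lay below the level limit, so those members could not be listed. The sizes differ widely, from Nudt5, at 110 CPM in WT against 117 in Srrm2+/- and not called (edgeR adjusted p 0.0844), to Acta2, a smooth muscle actin gene, at 2.48 CPM in WT against 43.9. Kit, a receptor tyrosine kinase gene, was at 30.3 CPM in WT against 17.6 in Srrm2+/-.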

How the data were processed

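Total RNA libraries (TruSeq Stranded, paired-end) of 3 WT and 3 Srrm2+/- replicates were grouped by their titles. The authors pseudo-aligned reads with kallisto 0.46.1 to GENCODE mouse transcripts (release M24, GRCm38) and deposited the estimated counts without normalization. Strand setting and filters are not given in the sources used here. Symbols, positions and lengths came from GENCODE M21 (42156 of 42450 identifiers matched). Here estimated counts were rounded, genes were filtered with filterByExpr (minimum count 10, total 15), and edgeR 4.0.16 was run with TMM, glmQLFit and glmQLFTest (two-sided) on all 6 libraries, with genotype as the sole term. Standard errors were derived from the fold change and the test statistic of the fit. The 95% intervals rest on these standard errors, so they are approximate, and they are not adjusted. All other adjusted p come from this fit unless another tool is named. limma 3.58.1 and DESeq2 1.42.0 were alternatives. The scripts were tested on simulated counts. Libraries of a group differed by more than sampling noise (a chi-square of at least 14.7 for each degree of freedom).

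The members and lists were chosen with earlier results of these data known. Named from the lists were called genes with the largest change, at most 4 per list, and the 5 genes most and least like Srrm2. Sap18, Elob, Srrm4os, 1700123O20Rik, Gm9825, Gm5898, Dcn, Thy1 and Cdx2 were named after their values were seen. Sequences are from the GENCODE M21 transcripts.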

Additional observations from a re-analysis of the deposited data

How the results depend on the processing

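Each of the 10 fold changes was recomputed under up to 15 alternatives: RLE and upper quartile normalization, DESeq2, limma voom, 2 other filters, a replicate block, every library left out in turn, short RNA, rRNA and mitochondrial genes removed and, chosen after seeing the data, pseudogene counts added. Pseudogene counts were added only to Srrm2, Rnps1, Bclaf1 and Thrap3. Srrm1 shares 4.27% of its 31-base stretches with a single other gene, whose counts were not added to it. Srrm2 was called in all 15 (-0.72 to -0.65), and Srrm1, Srrm3, Srrm4, Son, Acin1, Bclaf1 and Thrap3 in none; Srrm3 had no value under the filter of at least 1 CPM. Pnn kept its direction and was not called with the replicate block (-0.15, edgeR adjusted p 0.0522) or without 3 of the libraries (-0.18 to -0.13 over the 6 left-out libraries), and Rnps1 likewise with the replicate block (0.15, 0.0539) or without 4 of them (0.12 to 0.18). Son changed sign at 0.0052 (filter of at least 1 CPM), 0.0041 (at least 1 count), 0.0033 (upper quartile), 0.039 (without Srrm2+/- replicate 1) and 0.0058 (without WT replicate 3), and ranged from -0.027 to 0.039 when a library was left out. With a library left out, Srrm1 ranged from -0.083 to -0.058, Srrm3 from 0.023 to 0.34, Srrm4 from -0.46 to -0.26, Acin1 from -0.066 to -0.0072, Bclaf1 from -0.095 to -0.048 and Thrap3 from 0.0011 to 0.057. The number of called members was 3 in the other settings and 1 with the replicate block, at an adjusted p under 0.01 or with a change of 0.5 or more on the log2 scale, and 1 to 3 when a library was left out (1 without WT replicate 2 or Srrm2+/- replicate 1). Over all genes tested, same-numbered libraries did not deviate together (correlations -0.0285, -0.0337 and -0.03). Whether they did so for part of the genes was not tested. The block gave 14 called genes in the related lists against 19. That number was 12 to 16 when a library was left out, lowest without WT replicate 2. The summed SRRM level had a log2 difference of -0.35, of -0.45 without division by length, and of -0.37 to -0.33 when a library was left out. The ratio of Srrm1 to Srrm2 was 0.942 in WT (0.85 with merged exons, 1.13 with coding transcripts) and 1.45 in Srrm2+/- (1.31 and 1.73). The cause was not tested for any lost call. Depth limits Srrm3 (31 to 61 counts) and Srrm4 (144 to 192 counts).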
